A study of Mus musculus with 9 samples.

Results

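The 8 genes described here encode the mammalian oxygen-sensing core and were followed in 9 RNA-seq libraries from primary tubular epithelial cells (TECs) from mouse kidney. They were taken by gene symbol from a table of 31167 genes, and all 8 were found. Hif1a and Epas1 encode the alpha subunits HIF-1α and HIF-2α, and Arnt encodes their shared beta subunit. Egln1, Egln2 and Egln3 encode the prolyl hydroxylases, Hif1an the asparaginyl hydroxylase and Vhl the substrate receptor of the ubiquitin ligase.

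The cells came from C57BL/6 mice and fell into 3 groups of 3 libraries. Sham cells were left untreated. H/R cells were kept without glucose for 6 h at an oxygen level of 1.0%, followed by 18 h of reoxygenation in full medium, as a model of ischemia-reperfusion. EGR1OV cells were transfected at partial confluence with a plasmid that drives Egr1 from the cytomegalovirus promoter, which is not restricted to one cell type. For these cells the labels give no hypoxia, and no empty vector is described for Sham, so an effect of Egr1 cannot be told apart from one of transfection. Neither the time from transfection to collection nor the age of the mice is given in the sources used here. Nothing says that the 3 libraries of a group came from separate animals or cultures, so p-values measure the spread between these samples, which may be technical.

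As background, hydroxylation of the alpha subunits by the EGLN enzymes uses oxygen and 2-oxoglutarate and marks them for binding by VHL and for degradation. The asparaginyl hydroxylase, known as FIH, blocks recruitment of coactivators. When oxygen is low the alpha subunits persist, pair with ARNT and bind a short core motif near target genes. Much of this control acts on protein and is not seen in mRNA levels. In the kidney, HIF-1α is found mainly in tubular epithelium and HIF-2α mainly in endothelial and interstitial cells. Egln1 and Egln3 are themselves known HIF targets.

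Depth ran from 16183610 to 18384021 reads per library. The labels were first checked with Egr1, which read 6.20, 6.91 and 6.09 FPKM (reads corrected for exon length and library depth) in Sham replicates 1, 2 and 3. It read 8.57, 7.59 and 7.48 FPKM in H/R and 45.7, 42.2 and 40.1 FPKM in EGR1OV, so the transfected libraries stood apart from the others. Markers fixed for tubular epithelium were abundant in every library, among them Krt8, Krt18 and Cdh16, whereas the loop marker Umod was listed at 0 in all libraries and the proximal transporter Slc34a1 averaged 0.00434 FPKM in Sham. Macrophage markers were also present, at a summed 153 to 159 FPKM in Sham. In these bulk samples, fewer cells of a type and less RNA per cell cannot be told apart.

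The start-site regions of the 3 hydroxylase paralogs are shown because 2 of them are known HIF targets. Each run holds the 250 bases upstream of the RefSeq start on the gene's strand (build GRCm38.p6), in lower case with every HIF core (ACGTG or GCGTG, read on either strand) in capitals.
Egln1, chr8:124949255-124949504, minus strand: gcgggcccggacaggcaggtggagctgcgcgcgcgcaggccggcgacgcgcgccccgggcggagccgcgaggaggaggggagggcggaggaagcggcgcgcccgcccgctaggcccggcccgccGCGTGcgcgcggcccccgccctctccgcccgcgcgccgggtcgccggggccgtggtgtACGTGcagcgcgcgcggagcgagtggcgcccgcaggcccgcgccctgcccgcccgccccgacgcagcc
Egln2, chr7:27166803-27167052, minus strand: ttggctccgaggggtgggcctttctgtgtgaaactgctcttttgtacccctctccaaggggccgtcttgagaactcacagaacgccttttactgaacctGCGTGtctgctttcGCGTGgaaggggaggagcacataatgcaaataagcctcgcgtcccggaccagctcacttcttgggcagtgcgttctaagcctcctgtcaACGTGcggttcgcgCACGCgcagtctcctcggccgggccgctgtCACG
Egln3, chr12:54203875-54204124, minus strand: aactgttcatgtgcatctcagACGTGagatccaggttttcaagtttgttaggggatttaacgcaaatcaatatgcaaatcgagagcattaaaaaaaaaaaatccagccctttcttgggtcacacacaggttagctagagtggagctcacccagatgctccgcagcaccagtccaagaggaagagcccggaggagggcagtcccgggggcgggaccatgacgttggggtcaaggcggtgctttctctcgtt
Positions are counted from the start, with negative values upstream. Cores began at -126 and -68 in Egln1, at -151, -137, -48, -34 and -4 in Egln2, and at -229 in Egln3. The last core of Egln2 runs past the stretch shown. A further RefSeq start of Egln2 held 1 core. Hif1a held 2 cores, Arnt held 1, and Vhl and Hif1an held none in their windows. Of 32851 RefSeq promoter windows of 300 bases (250 upstream and 50 downstream), 43.8% held at least 1 core, with ACGTG in 19.6% and GCGTG in 32.4%. These shares were not matched for base composition. The median share of G and C over all windows was 52.7%. It was 86.0% for Egln1, 64.3% for the Egln2 start shown and 54.7% for Egln3. The EGR1 motif GCGTGGGCG, which contains GCGTG, was found in 0.612% of all windows and in none of those of the 7 genes with an entry. Epas1 had no entry. A match to these letters is a description of the sequence and not evidence of binding.

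In Sham cells Hif1a was the most abundant of the 8 mRNAs and Egln3 the least. Mean levels on the FPKM scale, which is per length and so can be set side by side, ran from Hif1a at 20.8 through Egln1 at 19.0, Egln2 at 14.3, Vhl at 10.9, Hif1an at 8.75, Arnt at 7.08 and Epas1 at 1.44 to Egln3 at 1.11. No neighbours in this order had overlapping ranges. After H/R Egln1 averaged above Hif1a, with overlapping ranges, and Epas1 and Egln3 also overlapped. In EGR1OV cells Egln1 and Egln2 overlapped, and Epas1 ranked last, below Egln3 with ranges apart.

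**Figure D1:**
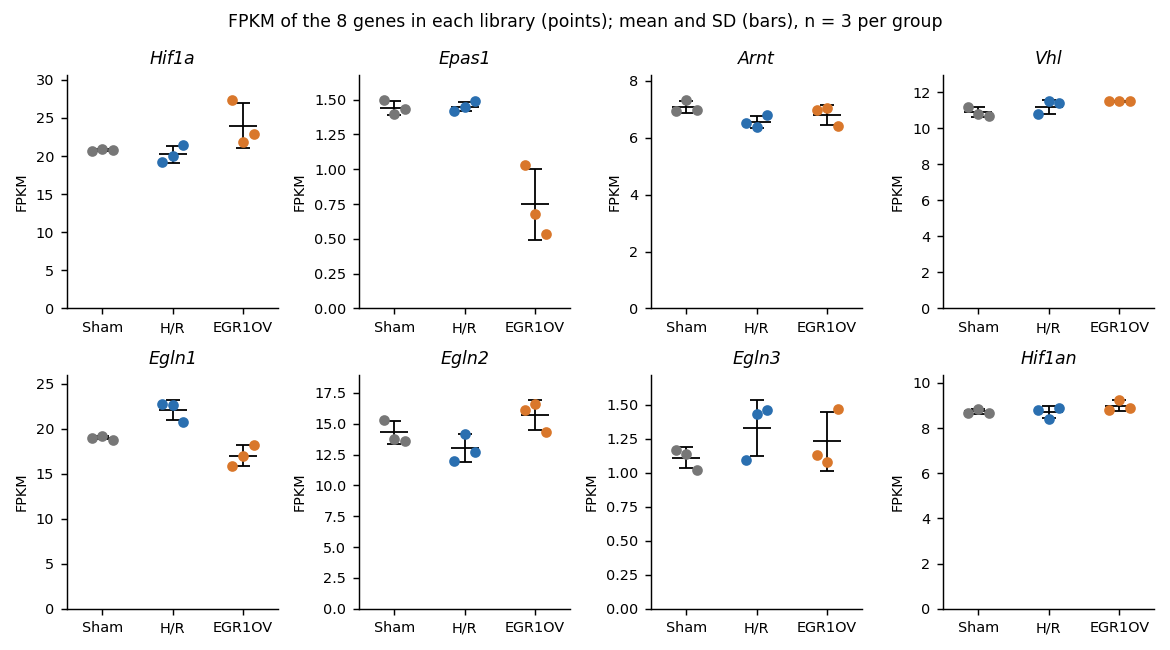
FPKM (y axis, from 0, a separate scale per gene) of the 8 genes in each library of Sham, H/R and EGR1OV; points are libraries and bars are the mean and SD of 3. Epas1 in EGR1OV (0.537 to 1.03 FPKM) lies below all other libraries (1.40 to 1.50 FPKM), and Egln1 lies above Sham in H/R and below it in EGR1OV.

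Changes were tested with limma on log2(FPKM + 1) over the 13985 genes averaging at least 0.5 FPKM, which include all 8. A call needed a Benjamini-Hochberg adjusted p under 0.05 together with a 1.2-fold difference between H/R and Sham, or a 1.3-fold difference where EGR1OV was compared. On this scale a log2 change understates that of a gene near 1 FPKM. With the first comparison none of the 8 was called, against a background of 4.25% of all genes tested. In this limma fit 1 of the 8 had an unadjusted p under 0.05, where 28.0% of all genes did. On the recovered reads voom, limma's fit for counts, also called 0 of the 8. At any fold 1 of 8 (Egln1) had an adjusted p under 0.05, where 11.7% of all genes did, and 2 of 8 had groups that did not overlap, where 33.6% did.

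Against Sham, EGR1OV gave 1 call of 8 (Epas1), beside 16.4% of all genes. At any fold 2 of 8 had an adjusted p under 0.05 (background 45.9%) and 4 of 8 had groups that did not overlap (background 55.7%). For EGR1OV against H/R the count was again 1 of 8 (Epas1) beside 18.9%, with 4 of 8 at any fold (background 51.0%) and 4 of 8 not overlapping (background 58.6%). The median absolute log2 change of the 8 was 0.0695, 0.10 and 0.15 in the 3 comparisons in this order, where that of all genes tested was 0.0865, 0.162 and 0.181. Both comparisons with Sham share the same control libraries.

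**Figure D2:**
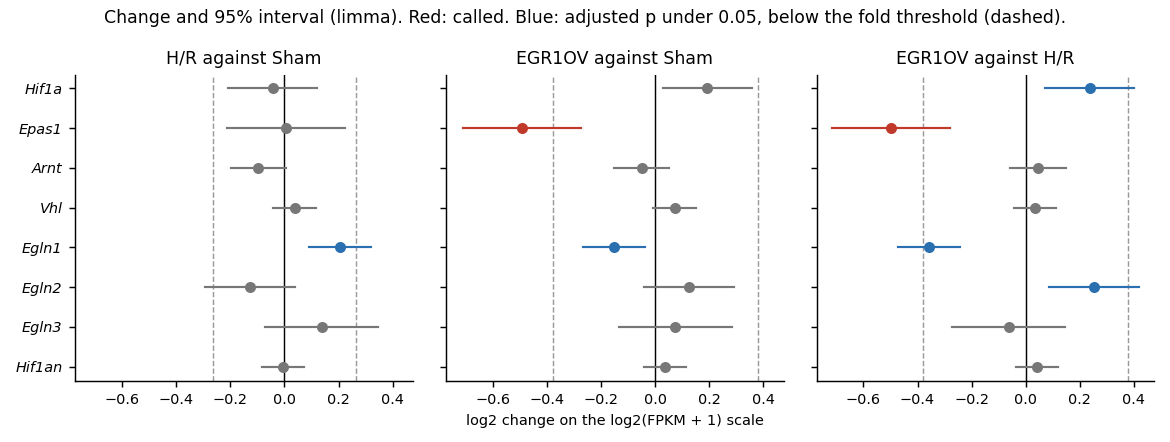
Log2 change of each gene on the log2(FPKM + 1) scale (x axis) in the 3 comparisons, with its 95% interval from limma; dashed lines mark the fold thresholds. Epas1 is the one gene called (red), at -0.49 against Sham and -0.50 against H/R, and Egln1 has opposite signs in the first and second panels (0.21 and -0.15).

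Among the alpha subunits, Epas1 (ENSMUSG00000024140, chr17:86753907-86833410, plus strand, GRCm38) fell in EGR1OV cells. HIF-2α, its product, is known for driving erythropoietin in kidney interstitial cells. Epas1 read 1.50, 1.40 and 1.43 FPKM in Sham replicates 1, 2 and 3, 1.42, 1.45 and 1.49 FPKM after H/R, and 1.03, 0.680 and 0.537 FPKM with EGR1OV. The 3 EGR1OV libraries were the lowest of the 9, with no overlap, whereas Sham and H/R overlapped throughout. The EGR1OV mean fell by 48.1% from Sham (log2 change -0.49, SE 0.097, adjusted p = 0.00261, limma) and fell by 48.4% from H/R (log2 change -0.50, SE 0.097, adjusted p = 0.00213). H/R differed from Sham by 0.01 on the log2 scale (95% interval -0.21 to 0.22, adjusted p = 0.978).

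These Epas1 levels rest on few reads, from 48 to 91 in the EGR1OV libraries and from 122 to 142 in the others, and counting alone gives a CV of 12.3% per EGR1OV library, where the observed CV was 34.0%. The exon length used to recover these reads, 5310 bases, was inferred as one that gives whole reads. The table's Epas1 position differs from that of GENCODE M21 (5590 bases), so the reads and the counting CV rest on the inferred length. The voom value instead used reads recovered with 5590 bases and rounded to whole numbers. The call held in all 17 alternatives that tested it. Its size depended on the low-value scale: the log2 change against Sham was -0.90 with a pseudocount of 0.1 and -0.99 with voom on the recovered reads.

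Markers of tubule and of other cell types were set beside Epas1. In EGR1OV against Sham every tested endothelial and macrophage marker had a negative change, while tubule and fibroblast markers went both ways. The 12 endothelial markers together gave 20.1 to 20.8 FPKM per Sham library, 20.6 to 21.4 per H/R library and 15.9 to 16.4 per EGR1OV library. All 8 that were tested had a negative change in EGR1OV against Sham. Of these, 1 was called, where 16.4% of all genes tested were. That one, Pecam1, an adhesion molecule of endothelium, averaged 1.76 FPKM in Sham and 1.01 in EGR1OV (log2 change -0.46, SE 0.067, adjusted p = 0.000442, limma). In EGR1OV against H/R all 8 were also negative and 3 were called lower, where 18.9% of all genes tested were called. Voom called 3 of the 8 against Sham and 5 against H/R, where it called 3009 and 3533 genes in all. Of the 12 markers, 4 averaged under 0.5 FPKM in Sham, among them Vwf at 0.0975, while Eng averaged 6.29, Cdh5 3.41 and Emcn 3.38 FPKM, all above Epas1.

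The 11 macrophage markers together gave 153 to 159 FPKM per Sham library, 129 to 139 per H/R library and 24.4 to 30.1 per EGR1OV library, and 10 of 10 tested were called lower in EGR1OV than in Sham. Tubule markers summed to 1930 to 1970, 1780 to 1860 and 1270 to 1380 FPKM in the same order of groups, with Krt8, Krt18 and Lrp2 called lower and Epcam called higher in EGR1OV than in Sham. Krt8 and Krt18 carried most of that sum, at a mean of 1010 and 685 FPKM in Sham, and 5 of the 9 tubule markers tested had a positive change in EGR1OV (median log2 change 0.04). Fibroblast markers summed to 37.4 to 39.3, 45.3 to 45.7 and 42.0 to 46.5 FPKM, with Lum listed at 0 in every Sham library. The part of any of these cells in the Epas1 level was not tested.

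**Figure D3:**
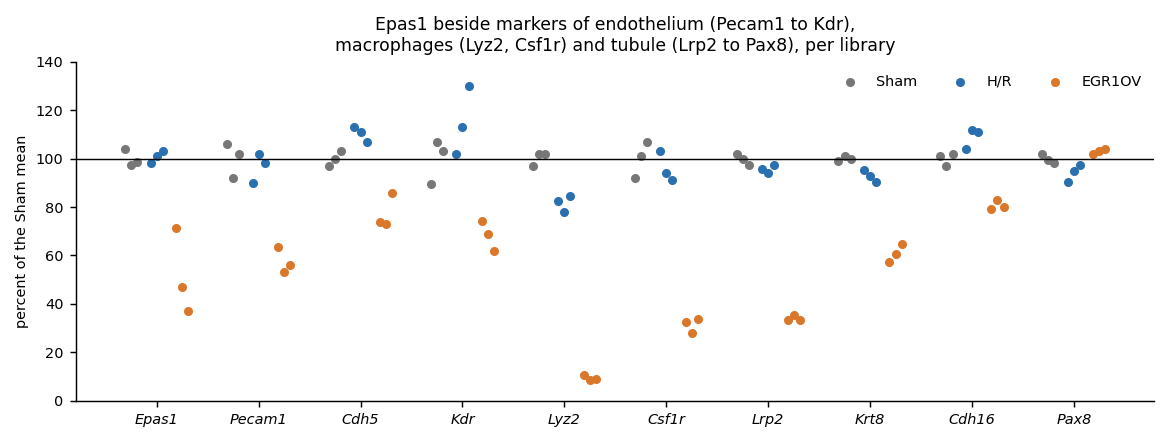
Epas1 and 9 marker genes as percent of their own Sham mean (y axis) in each library, colored by group. Epas1, Pecam1 and Cdh5 lie below 100 in all EGR1OV libraries, Lyz2 and Csf1r lie lower still, and of the tubule markers Lrp2, Krt8 and Cdh16 lie below 100 and Pax8 above it.

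Hif1a (ENSMUSG00000021109, chr12:73901375-73947530, plus strand) encodes the more broadly expressed alpha subunit and did not pass the call in any comparison. Its level was 20.7, 20.9 and 20.8 FPKM in Sham replicates 1, 2 and 3, 19.2, 20.0 and 21.4 FPKM after H/R, and 27.4, 21.9 and 22.9 FPKM with EGR1OV. The EGR1OV libraries all lay above the others, with replicate 1 well above the other two, while H/R spanned Sham. Against Sham the EGR1OV change was 0.19 (log2, SE 0.073, adjusted p = 0.0561, limma) and against H/R 0.24 (SE 0.073, adjusted p = 0.0228), under the 1.3-fold threshold. For H/R against Sham it was -0.04 (95% interval -0.21 to 0.12, adjusted p = 0.752).

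The Hif1a difference in EGR1OV was smaller without its replicate 1, when the change was 0.10 against Sham (adjusted p = 0.119, limma) and 0.14 against H/R (adjusted p = 0.0337). Without H/R replicate 1 or 2 the latter had an adjusted p of 0.076 or 0.0595. Quantile normalization gave 0.11 against Sham (adjusted p = 0.282, limma) and 0.13 against H/R (adjusted p = 0.182), and median-ratio scaling 0.17 against H/R (adjusted p = 0.0793). Of Hif1a's exon bases 5.60% are shared with the antisense gene Gm15283, which averaged 0.194, 0.278 and 0.188 FPKM in the 3 groups, and 2.51% with Gm49321 on the same strand. Whether counting used strand is not given in the sources used here.

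The alpha subunit pool was almost entirely Hif1a mRNA. The ratio of Epas1 to Hif1a within a library was 0.0726, 0.0672 and 0.0685 in Sham, 0.0741, 0.0728 and 0.0695 after H/R, and 0.0377, 0.0311 and 0.0235 with EGR1OV. EGR1OV therefore lay apart from both other groups, which overlapped. The log2 difference from Sham was -1.20 (SE 0.202, exact two-sided permutation p = 0.1, the smallest that 3 against 3 allows, 0.18 adjusted over 9 ratio tests). Hif1a made up 93.5% ± 0.248 of the summed alpha subunit FPKM in Sham cells, 93.3% ± 0.207 after H/R and 97.0% ± 0.671 with EGR1OV (SD, n = 3). The 2 genes summed to 22.2 to 22.3, 20.6 to 22.9 and 22.6 to 28.4 FPKM.

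Arnt (ENSMUSG00000015522, chr3:95434388-95497240, plus strand), whose product also pairs with the aryl hydrocarbon receptor, showed small differences that were not called. It read 6.94, 7.34 and 6.96 FPKM in Sham, 6.52, 6.37 and 6.79 FPKM after H/R, and 6.99, 7.04 and 6.40 FPKM with EGR1OV. H/R lay wholly below Sham by a small margin, and EGR1OV overlapped both. The H/R change was -0.10 on the log2 scale (95% interval -0.20 to 0.01, adjusted p = 0.205, limma), and that of EGR1OV against Sham was -0.05 (95% interval -0.15 to 0.05, adjusted p = 0.405). Quantile normalization gave -0.14 for the latter (adjusted p = 0.0213, limma), below the fold threshold.

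Of the hydroxylases, Egln1 (ENSMUSG00000031987, chr8:124908587-124949324, minus strand), the main enzyme setting HIF-α levels in normal oxygen, differed in sign between the treatments. Sham replicates 1, 2 and 3 read 19.0, 19.2 and 18.8 FPKM, H/R read 22.8, 22.6 and 20.8 FPKM, and EGR1OV read 15.9, 17.0 and 18.2 FPKM. All 3 groups were free of overlap, with H/R highest and EGR1OV lowest. H/R was 16.3% above Sham (log2 change 0.21, SE 0.05, adjusted p = 0.0324, limma) and EGR1OV fell by 10.3% from it (log2 change -0.15, SE 0.05, adjusted p = 0.0352). Neither reached its fold threshold.

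The widest gap was between EGR1OV and H/R, and the EGR1OV mean fell by 22.9% from that of H/R (log2 change -0.36, SE 0.05, adjusted p = 0.000305, limma), just short of the threshold of 0.379. This comparison passed under median-ratio scaling (-0.43) and quantile normalization (-0.47), and without EGR1OV replicate 3 (-0.40) or H/R replicate 3 (-0.40). The smaller differences from Sham were less stable: the adjusted p of H/R against Sham rose to between 0.0746 and 0.0945 without any 1 of the Sham libraries or without H/R replicate 1 or 2. That of EGR1OV against Sham rose to between 0.0659 and 0.114 without any 1 of the Sham libraries or without EGR1OV replicate 1 or 2.

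Egln2 (ENSMUSG00000058709, chr7:27158658-27166802, minus strand) encodes a paralog that is not known as a HIF target. It read 15.3, 13.8 and 13.6 FPKM in Sham, 12.0, 14.2 and 12.7 FPKM after H/R, and 16.1, 16.6 and 14.3 FPKM with EGR1OV. Sham overlapped both treated groups, whereas EGR1OV lay above H/R by a narrow gap. The log2 change was -0.13 for H/R (95% interval -0.29 to 0.04, adjusted p = 0.30, limma) and 0.13 for EGR1OV (95% interval -0.04 to 0.29, adjusted p = 0.198) against Sham. Between EGR1OV and H/R it was 0.25 (SE 0.074, adjusted p = 0.0178), under the fold threshold, and without H/R replicate 1 or 3 or EGR1OV replicate 1 or 2 the adjusted p was between 0.0539 and 0.0652. Median-ratio scaling gave 0.19 (adjusted p = 0.0596, limma) and quantile normalization 0.12 (adjusted p = 0.206), the latter also giving 0.02 for EGR1OV against Sham (adjusted p = 0.83).

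Egln3 (ENSMUSG00000035105, chr12:54178981-54203860, minus strand), a hydroxylase that is strongly hypoxia-inducible in many cells, was scarce. It read 1.17, 1.14 and 1.02 FPKM in Sham, 1.09, 1.43 and 1.46 FPKM after H/R, and 1.13, 1.08 and 1.47 FPKM with EGR1OV. The groups overlapped, with H/R replicates 2 and 3 and EGR1OV replicate 3 the highest. Its log2 change was 0.14 for H/R (95% interval -0.07 to 0.35, adjusted p = 0.371, limma) and 0.08 for EGR1OV (95% interval -0.13 to 0.28, adjusted p = 0.547). With 45 to 70 reads per library, counting alone gives a CV of 12.7% to 14.2%. The H/R change was 0.26 with voom on the recovered reads, also not called.

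Within a library the balance between the abundant hydroxylases set H/R apart. Egln2 relative to Egln1 was 0.807, 0.722 and 0.723 in Sham, 0.528, 0.630 and 0.609 after H/R, and 1.01, 0.978 and 0.783 with EGR1OV. H/R lay below both other groups, and EGR1OV overlapped Sham through its replicate 3. Relative to Sham the log2 difference of H/R was -0.35, and EGR1OV exceeded H/R by 0.65 (each with an exact two-sided permutation p = 0.1, 0.18 adjusted). Egln3 relative to Egln1 averaged 0.0585 ± 0.00355, 0.0604 ± 0.0115 and 0.0719 ± 0.00867 (SD, n = 3), with EGR1OV apart from Sham (exact permutation p = 0.1, 0.18 adjusted). Egln1 made up 55.3% ± 1.54, 60.7% ± 2.42 and 50.2% ± 3.01 of the summed hydroxylase FPKM in Sham, H/R and EGR1OV (SD, n = 3), while the sum stayed between 33.1 and 38.3 FPKM in all libraries.

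**Figure D4:**
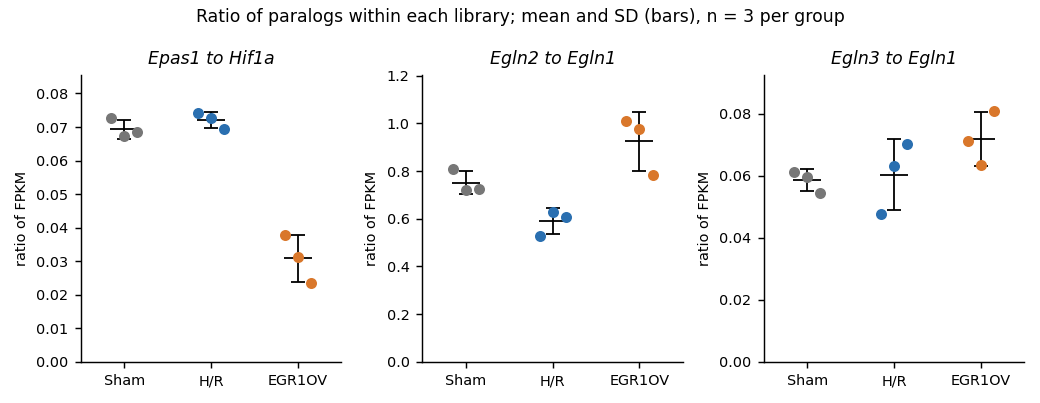
Ratio of FPKM between paralogs within each library (y axis, from 0), with the mean and SD of 3 libraries per group. The Epas1 to Hif1a ratio of EGR1OV (0.0235 to 0.0377) lies apart from the other groups, and the Egln2 to Egln1 ratio is lowest in H/R (0.528 to 0.630).

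Hif1an (ENSMUSG00000036450, chr19:44562850-44576274, plus strand), which encodes FIH, read 8.69, 8.86 and 8.68 FPKM in Sham, 8.79, 8.42 and 8.90 FPKM after H/R, and 8.82, 9.25 and 8.91 FPKM with EGR1OV. Its groups overlapped in all comparisons. The 95% intervals of its log2 change were -0.08 to 0.07 for H/R and -0.04 to 0.11 for EGR1OV against Sham, and its direction in all 3 comparisons turned under at least 1 other scaling.

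Vhl (ENSMUSG00000033933, chr6:113623959-113631633, plus strand), which encodes the protein that recognizes hydroxylated HIF-α, read 11.2, 10.8 and 10.7 FPKM in Sham, 10.8, 11.5 and 11.4 FPKM in H/R, and 11.5 FPKM in every EGR1OV library. EGR1OV lay above Sham by a small margin and overlapped H/R. The log2 change was 0.07 for EGR1OV against Sham (95% interval -0.01 to 0.15, adjusted p = 0.123, limma) and -0.04 under quantile normalization. For H/R it was 0.04 (95% interval -0.04 to 0.12, adjusted p = 0.521).

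On the log2(FPKM + 1) scale, the genes with profiles closest to Epas1 over the 9 libraries were Top2b, mt-Co1 and B230219D22Rik. That scale understates a change near 1 FPKM, so the likeness does not carry over to FPKM. From Sham to EGR1OV, Epas1 went from 1.44 to 0.75 FPKM, a larger relative fall than theirs. Top2b went from 14.4 to 10.3 FPKM, mt-Co1 from 7240 to 5060 and B230219D22Rik from 49.9 to 34.6. The measure was the root mean square difference between log2(FPKM + 1) profiles centred on their means, and it came to 0.0739, 0.0758 and 0.0765 among 7588 genes averaging at least 5 FPKM, where the Epas1 profile itself had a root mean square of 0.253.

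Genes for the proteins around this core showed few called changes. Of the VHL ligase and its counterplayers, 0 of 7 genes tested were called after H/R (4 at an unadjusted p under 0.05, 0 with voom). All 7 had a negative change after H/R, where 40.1% of all genes tested had a positive one. In EGR1OV against Sham 1 of 7 was called (4 at an unadjusted p under 0.05, 1 with voom). Against H/R 0 of 7 were called in EGR1OV (6 at an unadjusted p under 0.05, 1 with voom). Over all genes tested, 28.0%, 52.5% and 56.5% had an unadjusted p under 0.05 in H/R against Sham, EGR1OV against Sham and EGR1OV compared with H/R. The called gene, Eloc, which encodes elongin C and links VHL to the cullin, averaged 39.7 FPKM ± 0.504 in Sham, 37.5 ± 0.321 after H/R and 28.8 ± 0.665 with EGR1OV (SD, n = 3, log2 change -0.45 against Sham, adjusted p = 7.04e-07, limma). Its partner Elob read 222 FPKM in Sham, 189 after H/R and 186 in EGR1OV, and was looked up after its values were seen. Against Sham its log2 change was -0.23 for H/R (adjusted p = 0.023, limma) and -0.26 for EGR1OV (adjusted p = 0.00288), each below the fold threshold. In EGR1OV against H/R the Elob change was -0.03 (adjusted p = 0.703). That of Eloc was -0.37 (adjusted p = 2.57e-06), also below the fold threshold. The median log2 change of the list against Sham was -0.08 for H/R and -0.06 for EGR1OV, where all genes had -0.03 and 0.02. For EGR1OV against H/R it was 0.13 beside 0.05 for all genes.

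The 7 tested coactivators and CITED competitors and the 15 tested other regulators of HIF or EGLN stability held no call in either comparison with Sham or in EGR1OV against H/R by limma. At an unadjusted p under 0.05 the coactivators gave 3 genes for H/R, 5 for EGR1OV and 7 for EGR1OV against H/R (voom calls 1, 0 and 2), and the stability regulators gave 3, 7 and 9 (voom calls 0 in each). Of the relatives of HIF, 2 of 4 were abundant enough to test, Arnt2 and Ahr. Mean Arnt2 exceeded mean Arnt in each group: 8.63 against 7.08 FPKM (Sham), 8.44 against 6.56 (H/R) and 9.53 against 6.81 (EGR1OV). The Arnt levels given above do not include Arnt2. In EGR1OV Arnt2 was 0.13 higher than in Sham on the log2 scale (adjusted p = 0.0361, limma). Against H/R it was 0.16 higher (adjusted p = 0.0142), and both changes were under the fold threshold. H/R differed from Sham by -0.03 (adjusted p = 0.739). Ahr, the aryl hydrocarbon receptor and another partner of ARNT, averaged 5.69 FPKM ± 0.433 in Sham and 7.38 ± 0.213 in H/R (SD, n = 3, log2 change 0.33, adjusted p = 0.00514, limma) and 5.60 in EGR1OV. Hif3a was near 0, at 0.00285 FPKM in Sham.

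Other dioxygenases that use oxygen and 2-oxoglutarate, or oxygen alone, gave 2 calls of 18 after H/R, 0 in EGR1OV against Sham (10 at an unadjusted p under 0.05, 1 with voom), and 2 in EGR1OV against H/R. P4ha1, a collagen prolyl hydroxylase subunit, rose from 42.9 FPKM ± 0.705 to 59.6 ± 1.55 after H/R (SD, n = 3, log2 change 0.47, adjusted p = 9.04e-05, limma) and was 0.46 lower on the log2 scale in EGR1OV than in H/R. P4ha2 rose from 9.24 to 11.5 FPKM after H/R (log2 change 0.29, adjusted p = 0.00358). Kdm3a, a histone demethylase, was higher in EGR1OV than in H/R, at 9.38 against 6.76 FPKM (log2 change 0.42, adjusted p = 8.3e-05). These 3 genes also stand in the list of HIF targets.

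A list of 20 enzymes covered succinate, fumarate and 2-oxoglutarate, the last a substrate of these hydroxylases. In it H/R gave 0 calls (10 at an unadjusted p under 0.05, 0 with voom). The median log2 change was -0.11 beside -0.03 for all genes, of which 28.0% had an unadjusted p under 0.05. EGR1OV against Sham gave 1 call, of Idh2, the mitochondrial NADP-dependent isocitrate dehydrogenase, which fell from 16.2 FPKM ± 0.292 to 10.4 ± 0.57 (SD, n = 3, log2 change -0.60, adjusted p = 1.83e-05, limma). Against H/R it was also lower (-0.53), and Got2, the mitochondrial aspartate aminotransferase, was higher (0.39).

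After H/R 18 of 42 HIF target genes tested were called higher and 0 lower, where 4.25% of all genes tested were called in either direction. Their median log2 change was 0.23 beside -0.03 for all genes. The list was chosen with earlier results of these data known, so these counts describe it and do not test it. Slc16a3, a lactate exporter, rose from 4.90 to 12.4 FPKM (log2 change 1.18, adjusted p = 5.61e-06, limma), Pfkl, a phosphofructokinase, from 12.5 to 25.9 FPKM (0.99, adjusted p = 1.67e-05) and Bnip3, a mitophagy receptor, from 3.01 to 6.71 FPKM (0.95, adjusted p = 0.00277). Egln1 and Egln3, known targets themselves, had log2 changes of 0.21 and 0.14 here.

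In EGR1OV against Sham 8 of 42 targets were called higher and 0 lower, a share near the 16.4% of all genes called, with a median log2 change of 0.10 beside 0.02 for all genes. Hexokinase Hk2 rose from 33.6 to 58.6 FPKM (log2 change 0.78, adjusted p = 1.87e-06, limma), the angiogenic factor Vegfa from 25.1 to 38.7 FPKM (0.60, adjusted p = 6.36e-05) and the vasodilator peptide Adm from 15.7 to 23.5 FPKM (0.55, adjusted p = 0.000309). Against H/R 4 targets were higher and 12 lower in EGR1OV (median -0.10 beside 0.05 for all genes, of which 18.9% were called), among them Fam162a (-0.93), Slc16a3 (-0.84) and the pyruvate dehydrogenase kinase Pdk1 (-0.78). Epo, also on this list, was not found by gene symbol among the 31167 genes and so was not analysed.

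**Figure D5:**
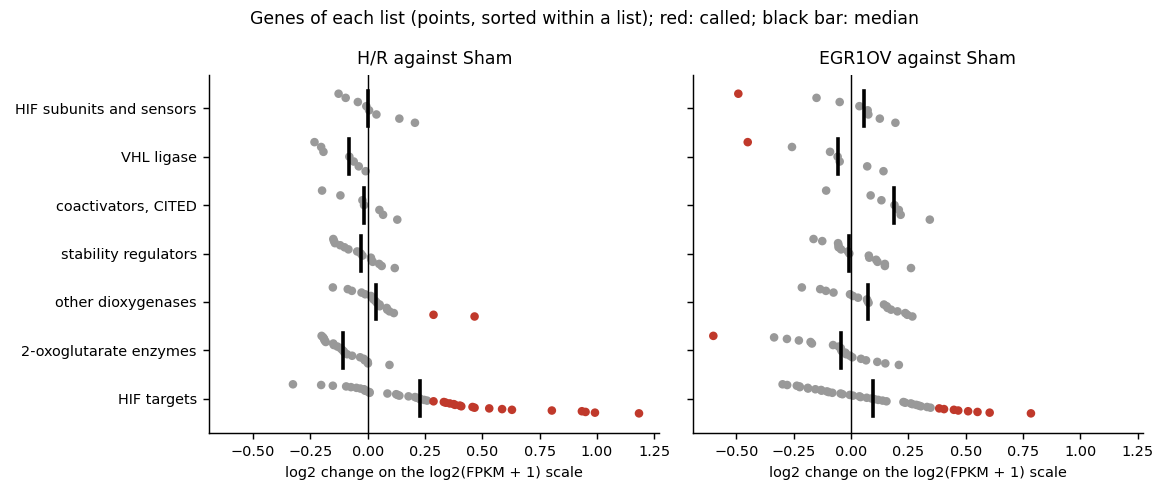
Log2 change on the log2(FPKM + 1) scale (x axis) of each tested gene of the 8-gene core and of 6 lists (y axis) for H/R and EGR1OV against Sham; red points are called and black bars are list medians. In the left panel the called points lie in the HIF targets and other dioxygenases, and the core has none; in the right panel the core has 1, Epas1.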

How the data were processed

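Total RNA was sequenced as 9 libraries on an Illumina instrument. The authors deposited FPKM values per gene. The submitters' processing notes list Bowtie2 2.2.3, HISAT2 2.1.0 and TopHat2 with build mm9; the counter, annotation and strand setting are not given in the sources used here. Of the gene positions, 94.6% equal those of GRCm38, so coordinates are given in that build. Multiplying FPKM by exon length and depth returned whole reads (within 0.02) for 94.0% of 162890 values of 1 to 1000 reads, which gave the depths and reads quoted. Gene symbols that had turned into dates (26) were restored.

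Genes averaging at least 0.5 FPKM were fitted with limma 3.58.1 (R 4.3.3) on log2(FPKM + 1) over all 9 libraries, with an intensity trend and Benjamini-Hochberg adjustment. The fit was also run on simulated counts with less spread than Epas1 showed in EGR1OV, so that run does not bear on its call. The 1.2-fold and 1.3-fold thresholds follow the study, except that the latter was chosen here for EGR1OV against H/R. Ratios were compared by exact permutation. Alternatives were 2 other scalings, other filters, a pseudocount of 0.1, voom on recovered reads, no trend, a replicate block, the compared groups alone and leaving out each library. The 8 genes and the lists were chosen with earlier results of these data known. All 8 genes were named, with up to 3 called genes per list and comparison with the largest change, and the 3 genes most like a called member. Marker genes were named where a list touched a result.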

Additional observations from a re-analysis of the deposited data

Results flagged for a closer look

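The response of Epas1 differed between the treatments. Its log2 change was 0.01 in H/R and -0.49 in EGR1OV, both against the same Sham libraries, and the direct comparison of EGR1OV with H/R gave -0.50 (SE 0.097, adjusted p = 0.00213, limma), with all 3 EGR1OV libraries below all 3 H/R libraries. Groups of 3 libraries were not tested for outlying samples.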

How the results depend on the processing

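Epas1 kept its direction and its call in EGR1OV against Sham and against H/R under all 17 alternatives that tested it, with log2 changes against Sham from -0.992 to -0.403. The filter at a mean of 5 FPKM drops Epas1, so 0 of the tested genes of the core were then called in either comparison. Without a fold threshold 1, 2 and 4 were called for H/R against Sham, EGR1OV against Sham and EGR1OV against H/R. For EGR1OV against H/R the count was 2 under median-ratio scaling and under quantile normalization, and 1 to 2 when each library was left out, with Egln1 added.

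Over all genes, 594, 2291 and 2641 were called in the same order of comparisons. The filter at 5 FPKM gave 372, 1315 and 1520, and no fold threshold gave 1635, 6417 and 7135. Voom gave 995, 3009 and 3533, and a pseudocount of 0.1 gave 765, 2883 and 3399. In the main fit 37.7%, 60.3% and 63.2% of the calls were higher. This was 58.2%, 54.9% and 51.0% with median-ratio scaling, and 56.5%, 45.9% and 42.5% with quantile normalization.

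Changes that turned sign were all small and uncalled. For H/R against Sham, Hif1an gave 0.031 under both scalings and -0.021 to 0.015 with libraries left out, and Epas1 -0.006 to 0.023. In EGR1OV against Sham, quantile normalization gave -0.066 for Hif1an and -0.036 for Vhl, and Egln3 ranged from -0.003 to 0.122 with libraries left out. For EGR1OV against H/R, median-ratio scaling and quantile normalization gave -0.016 and -0.075 for Arnt, -0.021 and -0.097 for Hif1an, and -0.031 and -0.091 for Vhl. With a pseudocount of 1 the log2 difference in the Epas1 to Hif1a ratio was -0.685 against Sham and -0.734 against H/R. The cause of these shifts was not tested, beyond the fewer genes tested under the filter and the absent threshold.

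Deviations of same-numbered libraries from their group means correlated between -0.195 and 0.263. Such values cannot show whether these libraries share an animal or culture, which the sources used here do not give. Under the replicate block no call among the 8 genes changed, and 516, 2309 and 2654 genes were called. Epas1 was at -0.492 against Sham (adjusted p = 0.0053, limma), and Egln1 at an adjusted p of 0.0685 in H/R and 0.0667 in EGR1OV against Sham.

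Depth limits Epas1 and Egln3, which had at most 142 and 70 reads in a library, and intervals from counting cover counting error only.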
